A study of Oryza sativa Japonica Group and Oryza sativa Indica Group with 24 samples.

Results

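The genes described here encode the calcium sensors of rice and the protein kinases that read them. They were chosen by name from the gene table, as every gene whose symbol or synonym, without a leading Os, is CAM, CML, CBL, CPK, CDPK or CIPK followed by a number, with CIPK10 and CIPK14 left out. The rule found 90 genes, of which 75 had at least 1 of the 57258 probe sets on the array that do not serve as controls, for 91 probe sets in all. These were 3 calmodulins (CAM) with 3 probe sets, 23 calmodulin-like genes (CML) with 28, 7 calcineurin B-like genes (CBL) with 8, 20 calcium-dependent protein kinases (CPK, older name CDPK) with 23, and 22 CBL-interacting protein kinases (CIPK) with 29. The other 15 genes, among them CBL1, CIPK3 under that symbol, CIPK9, CIPK15 and CPK14, had no probe set and are not analysed here. A filter on low signal kept 79 of the 91 probe sets, from 66 of the genes, and 34355 of all probe sets. The 12 that fell below it were the probe sets of CBL5, CIPK5, CIPK30, CML28, CML32, CPK2, CPK21 and CPK29, both of CPK6, and 1 each of CML4 and CML10.

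Calcium rises inside a plant cell within moments of salt, drought or cold, and proteins with EF-hand motifs bind it. Calmodulins, calmodulin-like proteins and CBL proteins are relays, which change shape with calcium and act on a partner, and the partners of the CBL proteins are the CIPK kinases. The CPK proteins carry the sensor and the kinase in 1 chain. In the salt overly sensitive pathway CBL4 (SOS3) binds CIPK24 (SOS2), and the pair activates the sodium exporter SOS1 at the plasma membrane.

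RNA of crowns with their growing points, taken at panicle initiation, was measured on 24 arrays that form 4 sets with 3 control and 3 salt-stressed arrays each. One set is m103 and another agami, both japonica, the former called sensitive to salt and the latter tolerant in the series text. The remaining sets both carry the name ir29 in their titles. In the series text ir29 is a sensitive indica, beside a tolerant indica, ir63731, whose name is in no title. The pair was kept apart by title number, as the first ir29-labelled set (7 to 12) and the second (19 to 24), with no tolerance class given to either. The condition comes from the titles and the treatment field, because a description field calls every sample unstressed. The titles call the replicates biological. Salt level, duration and the number of plants behind an array: not given in the sources used here.

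Growing point markers were present, with OSH1, a homeobox gene of the shoot meristem, between 1110 and 7510 in scaled signal for 1 of its probe sets, and with LAX1, a gene of axillary meristems, reaching at most 135. The summed signal of 9 growing point probe sets was 8900 to 10900 in m103 control arrays and 13100 to 14500 in its salt arrays, 11700 to 13100 and 12300 to 14200 in agami, 7590 to 8330 and 9100 to 11100 in the first ir29-labelled set, and 8160 to 10800 and 10900 to 13200 in the second. The root list, of 31 probe sets, was mostly CASP-like genes taken by name, beside CASP1, Lsi1 and Lsi2. Its summed signal was 34600 to 42300 in m103 control arrays and 27200 to 30100 in its salt arrays. The ranges of control and salt overlapped in the other sets. In m103, 9 of 28 tested probe sets of this list were called lower and 2 higher, against 4.67% and 4.17% of all probe sets tested. For the mean of the sets 3 of 8 growing point probe sets were called higher and 1 lower, against 9.16% and 8.59% of all. The leaf list, of 8 probe sets, summed to 64700 to 78300 and 48500 to 77000 in m103, 50800 to 55200 and 51300 to 60500 in agami, 59300 to 66500 and 49100 to 55600 in the first and 57200 to 73400 and 65100 to 66500 in the second ir29-labelled set. The 16 seed probe sets summed to at most 1140 in any array. The part of tissue composition in the results was not tested, and in bulk RNA fewer cells of a type and less RNA per cell cannot be told apart. The ratio of the 3' to the 5' actin control, which rises with RNA degradation, was 4.11 to 10.1 over all arrays, with 10.1 and 9.34 in salt arrays 2 and 3 of the second ir29-labelled set. Replicate arrays correlated at 0.963 to 0.974, 9 arrays of m103 and the first ir29-labelled set had been deposited on another scale, and all arrays were brought to a trimmed mean of 500, the unit of every scaled signal below.

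Salt lowered more members of these families than it raised, by modest amounts. A probe set was called where limma's adjusted p, over all 34355 probe sets tested, was under 0.05. In m103, 12 of 79 member probe sets were called, 10 lower and 2 higher, against 8.85%, 4.67% and 4.17% of all probe sets tested. In agami 1 was lower and 1 higher (0.413% and 0.521% of all, together 0.934%). In the first ir29-labelled set 8 were lower and 2 higher (2.42% and 3.38% of all, together 5.8%). In the second 4 were lower and 3 higher (4.42% and 4.41%, together 8.83%). Averaged over the 4 salt effects, 17 were lower and 2 higher, which is 21.5% and 2.53% of the members tested, beside 8.59% and 9.16% of all, together 17.7%. The median log2 change of the members was -0.17 for m103, -0.13 for agami, -0.04 and -0.10 for the first and second ir29-labelled sets and -0.12 for their average, while the medians of all probe sets lay between -0.03 and 0.02. Of the 79 members, 13 had a lower mean with salt in all 4 sets (16.5%, against 11.7% of all) and 3 had a higher mean in all 4 (3.8%, against 12.1%).

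Of the 31 member calls summed over the 4 sets, 23 were lower and 8 higher, and 3 reached 2-fold, CPK20 in m103, CIPK7 in agami and CML29 in the first ir29-labelled set. Over all probe sets 24.5% of the 8387 calls reached 2-fold, and calls of that size made up 2.56% of the probe sets tested in m103, 0.323% in agami and 2.13% and 0.958% in the first and second ir29-labelled sets, where the members had 1, 1, 1 and 0 of 79. Calls were spread thinly, with 61 of the 79 members called in no set, 9 in 1 set, 6 in 2, 2 in 3 and 1 in all 4. A call in at least 1 set was reached by 18 members (22.8%, against 18.9% of all) and in 2 or more sets by 9 (11.4%, against 4.46%). Control and salt arrays did not overlap for 27, 25, 26 and 18 of the 79 members (m103, agami, first and second ir29-labelled set), against 27.6%, 19.2%, 23.3% and 23% of all probe sets. The m103 count of 12 was 7 without control array 1, and the agami count of 2 was 0 in limma without control array 2 or 3 or salt array 2 or 3, with 9 to 16 members at an unadjusted p under 0.05. The count of 10 in the first ir29-labelled set was 5 without control array 2, control array 3 or salt array 2 and 6 without salt array 3, and the count of 7 in the second was 4 without control array 1, 3 without salt array 2 and 12 without salt array 1.

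**Figure D1:**
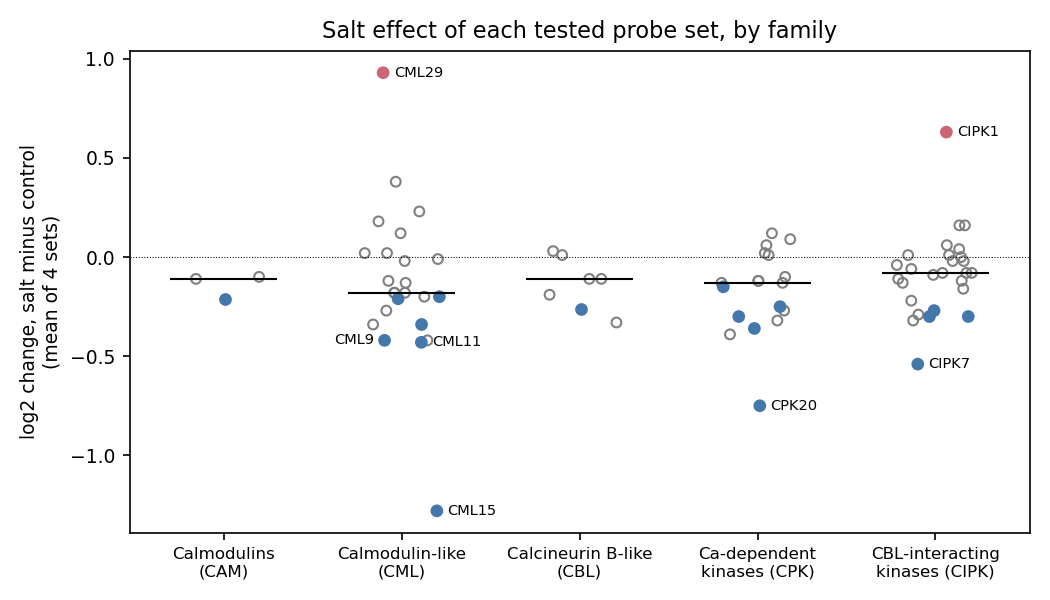
Salt minus control for each tested member probe set, as the mean log2 change over the 4 sets, by family. Filled points (red higher, blue lower) passed limma's adjusted p under 0.05, open points did not, and bars are family medians; most points lie below 0, CML29 and CIPK1 are the called points above it, and CML15 and CPK20 have the lowest called values.

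Calmodulins, the calcium relays with the widest range of partners, shifted little. CAM3 read 13400, 15100 and 14300 in the m103 control arrays and 12400, 11500 and 11400 in the salt arrays, which do not overlap. In the first ir29-labelled set its control arrays stood at 13800, 15400 and 16000 and its salt arrays at 12600, 11800 and 11900. Salt thus lowered CAM3 in both sets, by log2 changes of -0.28 ± 0.086 (SE, limma adjusted p = 0.044) and -0.31 ± 0.086 (adjusted p = 0.031). In agami the ranges overlapped, at 13700 to 15600 and 14600 to 15900. The m103 call ended when any 1 array but salt array 1 was left out (adjusted p 0.053 to 0.16), and the other when control array 2 or 3 or salt array 2 or 3 was (adjusted p 0.1 to 0.14). CAM2 was called in no single set and was lower for the mean of the sets (-0.21 ± 0.058, adjusted p = 0.015). CAM1, whose gene entry also carries the names CAM1-1, CAM1-2 and CAM1-3, ran from 12100 to 18200 over all arrays and gave -0.11 ± 0.044 for the mean (adjusted p = 0.1).

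Of 24 tested CML probe sets, 6 were lower and 1 higher when the sets were averaged (8.59% and 9.16% of all probe sets), with a median log2 change of -0.18. CML29 was the member called higher. In m103 it read 490, 535 and 369 in control arrays and 1140, 964 and 693 in salt arrays. In agami the arrays read 599, 881 and 886 without salt and 1660, 1400 and 1570 with it. The first ir29-labelled set had 892, 1080 and 975 against 1760, 2270 and 2250, and the second 996, 1960 and 1920 against 2730, 2450 and 2450. Every salt array lay above every control array of its own set, in all 4 sets. CIPK1 was the other member with no overlap in the same direction in all 4, a pattern that 1.1% of all probe sets tested had. The log2 changes of CML29 were 0.97 ± 0.21 in m103 (adjusted p = 0.0046), 0.97 ± 0.21 in agami (0.028), 1.08 ± 0.21 in the first ir29-labelled set (0.0028) and 0.70 ± 0.21 in the second (0.041), so it was called in all 4. Their mean was 0.93 ± 0.11 (adjusted p = 1.8e-06). The agami call ended when any 1 of its 6 arrays was left out (adjusted p 0.061 to 0.095), and that of the second ir29-labelled set without control array 1 (log2 change 0.39, adjusted p = 0.3), salt array 1, salt array 2 or salt array 3 (0.073 to 0.12). CML8, not called, was higher with no overlap in m103 (290, 282 and 312 against 755, 524 and 382). It was so in the first ir29-labelled set too (286, 281 and 344 against 545, 438 and 464), and overlapped in the others. CML31 was also higher with no overlap and not called in the first ir29-labelled set (52.1, 6.1 and 20.4 against 127, 74.2 and 98.8).

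**Figure D2:**
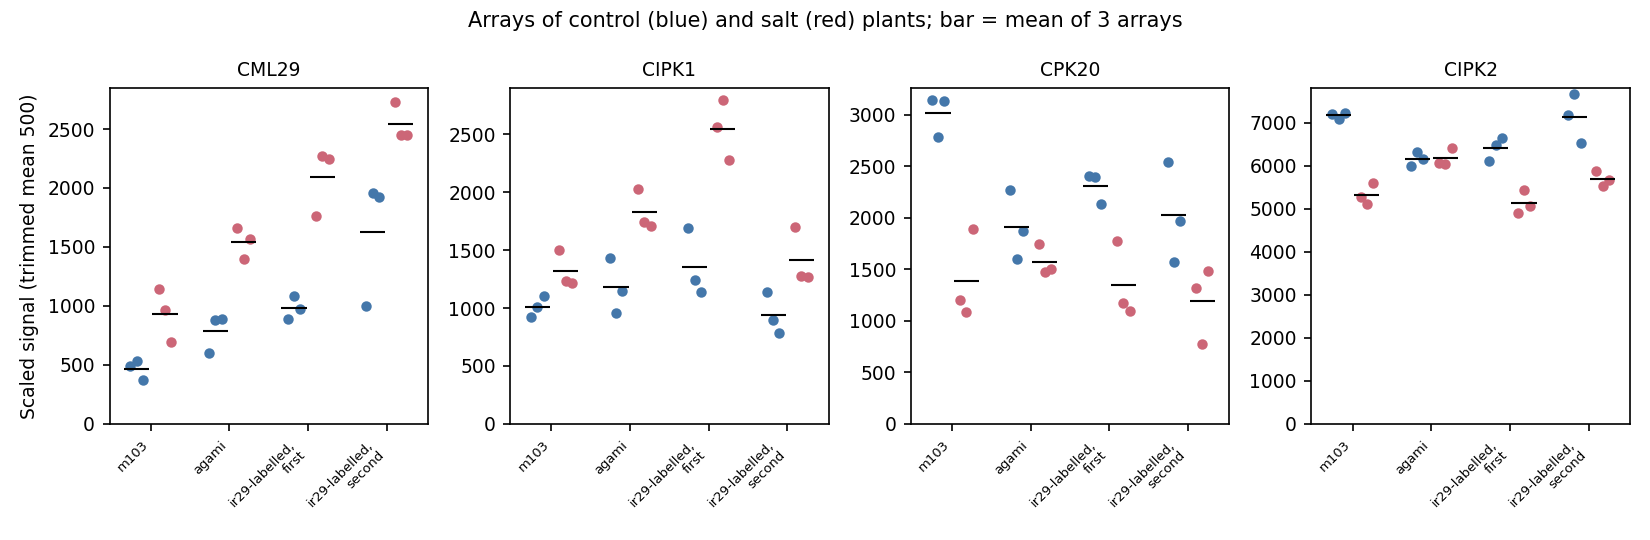
Scaled signal (trimmed mean 500) of CML29, CIPK1, CPK20 and CIPK2 in each of the 24 arrays, control beside salt in each set, with a bar at each group's mean. CML29 and CIPK1 have all salt arrays above all control arrays in each set, while CPK20 and CIPK2 lie lower with salt in 3 sets and overlap in agami.

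CML11 and CML7 were called lower in m103 and the first ir29-labelled set, and CML9 in m103. For none of these 3 genes was a difference in salt effect between sets called. CML11 read 443, 284 and 438 in m103 control arrays and 184, 241 and 215 in salt arrays, and in the first ir29-labelled set 358, 324 and 275 against 222, 128 and 173, with no overlap in either. The log2 changes were -0.80 ± 0.20 (adjusted p = 0.011) and -0.84 ± 0.20 (adjusted p = 0.01). In agami CML11 overlapped, at 291 to 355 without salt and 287 to 401 with it. In the second ir29-labelled set it read 274, 266 and 313 against 261, 247 and 239, lower with no overlap and not called (-0.18 ± 0.20, adjusted p = 0.67). The m103 call of CML11 ended without control array 1, control array 3 or salt array 1 (adjusted p 0.051 to 0.071), and that of the first ir29-labelled set without control array 1 or salt array 2 (0.054 and 0.079).

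CML7 read 7740, 8390 and 7160 in m103 control arrays and 5480, 5990 and 6260 in salt arrays, and 7400, 7710 and 7640 against 6530, 5690 and 5950 in the first ir29-labelled set. Salt arrays were thus below all control arrays in both sets, by -0.39 ± 0.082 (adjusted p = 0.0032) and -0.33 ± 0.082 (adjusted p = 0.018). The second of these calls ended without control array 2 or 3 or salt array 2 or 3 (adjusted p 0.06 to 0.094). CML9 was lower in m103, where control arrays read 401, 407 and 326 and salt arrays 195, 245 and 184 (-0.82 ± 0.18, adjusted p = 0.0049). Leaving out any 1 array kept that call. In the first ir29-labelled set CML9 read 450, 324 and 385 against 276, 302 and 268, also with no overlap and not called (-0.42 ± 0.18, adjusted p = 0.21). CML10 (-0.60 ± 0.19, adjusted p = 0.045) was also lower in m103, a call that ended without control array 1 (log2 change -0.35, adjusted p = 0.32), salt array 2 (0.13) or salt array 3 (0.15). CML13 was lower in the first ir29-labelled set (-0.44 ± 0.098, adjusted p = 0.0073), with an adjusted p of 0.067 without salt array 3.

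CML4 was lower in the second ir29-labelled set by 1 of its tested probe sets, at 871, 825 and 589 in control arrays and 637, 331 and 360 in salt arrays. These ranges overlap. The log2 change was -0.80 ± 0.21 (adjusted p = 0.019), and the call ended without control array 1 or 2 or salt array 2 or 3 (adjusted p 0.068 to 0.14). The other tested probe set of CML4 gave -0.10 ± 0.24 in that set. In agami both were lower with no overlap and neither was called. They read 1540, 1350 and 1630 against 864, 808 and 789 (-0.86 ± 0.24, adjusted p = 0.08) and 696, 760 and 865 against 505, 599 and 557 (-0.47 ± 0.21, adjusted p = 0.35).

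Control arrays numbered 1 stood high for a group of CML genes. CML15 had the lowest mean of the 4 salt effects among the called members (-1.28 ± 0.35, adjusted p = 0.012), and was called in no single set. Its m103 control arrays read 2580, 245 and 281 against 199, 192 and 76.8 with salt, and its agami control arrays 3210, 718 and 1170 against 561, 184 and 241. In the first ir29-labelled set control arrays read 1360, 390 and 234, and in the second 315, 184 and 342. The control array numbered 1 is the highest of 3 in the first 3 of these sets. CML16 went further, with 3270, 457 and 564 in m103 control arrays, 3660, 1100 and 1290 in agami, 2240, 688 and 567 in the first and 1200, 497 and 884 in the second ir29-labelled set. CML31 read 458, 5.41 and 3.78 in m103 and 727, 30.2 and 90.8 in agami. In all 4 sets the control array numbered 1 was the highest of 3 for 9 of the 79 members, CML14, CML16, CML18, CML27, CML30, CML31, CPK9, CPK13 and CPK20, which is 11.4%, against 2.74% of all probe sets. Control arrays numbered 2 or 3 were highest in all 4 sets for 0 members (1.32% and 1.4% of all), and salt arrays numbered 1 for 4 (5.06%, against 1.71%).

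This pattern was noticed after the values were seen, and the labels do not say what a number marks. Without the 4 control arrays numbered 1 the mean of the sets had 14 members lower and 3 higher, 15 of them called with all arrays. CML15 then gave -0.67 (adjusted p = 0.067), CML10 -0.19 (adjusted p = 0.092) and CPK13 -0.14 (adjusted p = 0.3). Their calls for the mean ended, as did that of CPK12, while CML29 (0.80), CIPK1 (0.73) and CPK20 (-0.66) kept theirs. The single sets then had 8 members called in m103 and 3 in agami, with 9 and 4 for the first and second ir29-labelled sets. Calls that ended in m103 were those of CPK23, CIPK7, CML11 and CML10. In the first ir29-labelled set they were those of CML11, CPK20 and CPK19, and in the second those of CML29, CML4, CPK20 and CBL3.

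**Figure D3:**
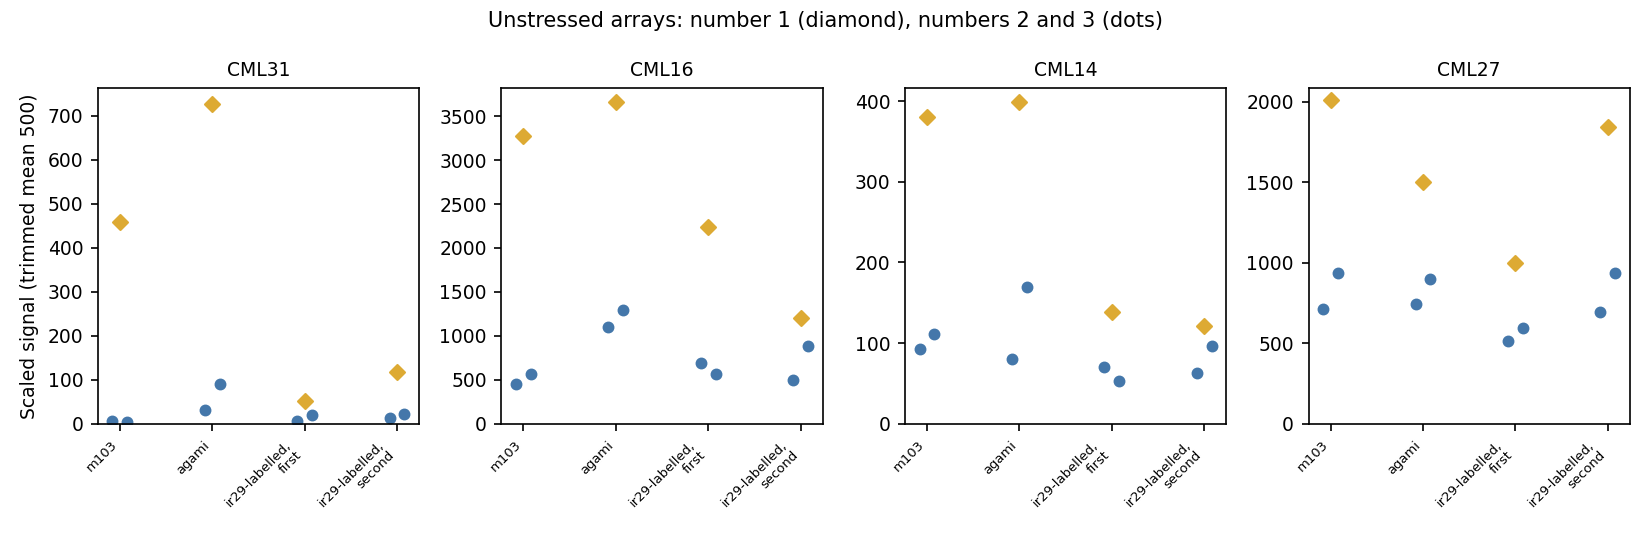
Scaled signal of CML31, CML16, CML14 and CML27 in the control arrays of each set, with the array numbered 1 drawn as a diamond. The diamond is the highest control array for each of these genes in each set.

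CBL proteins select and anchor the CIPK kinases. Of 7 tested CBL probe sets, 1 was lower in the second ir29-labelled set (4.42% of all were) and 0 were called in each other set. Over the mean of the sets 1 of 7 was lower (8.59% of all). CBL3 read 2060, 2040 and 2080 in the control arrays of the second ir29-labelled set and 1210, 1560 and 1640 in its salt arrays, with no overlap (-0.50 ± 0.12, adjusted p = 0.012). Without salt array 1 the log2 change was -0.36 (adjusted p = 0.055). Both salt arrays with the highest actin ratio are in this set, and without them, which leaves 1 salt array, the log2 change of CBL3 was -0.76. Its call ended when the set was fitted alone and when the 4 control arrays numbered 1 were left out. In the other sets the CBL3 ranges overlapped. CBL9 was lower for the mean of the sets by 1 of its probe sets (-0.26 ± 0.079, adjusted p = 0.023), and the other gave -0.19 ± 0.098. Of the sensors of the salt overly sensitive pathway, CBL4 read between 60.7 and 209 over all arrays, with a mean log2 change of -0.33 ± 0.14 (adjusted p = 0.12). CBL10, which in Arabidopsis partners the same kinase in shoots, gave 0.03 ± 0.069 (adjusted p = 0.86).

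Among the CPK kinases, 5 of 18 tested probe sets were lower over the mean of the sets (8.59% of all were, and the CPK median was -0.13), and 1 of 18 was higher in m103 (4.17% of all). CPK20 had the lowest values. Its m103 control arrays read 3140, 2780 and 3130 and its salt arrays 1200, 1080 and 1890. The first ir29-labelled set read 2400, 2390 and 2130 against 1770, 1170 and 1090, and the second 2540, 1570 and 1970 against 1320, 777 and 1480. In these 3 sets salt arrays lay below all control arrays. The log2 changes were -1.15 ± 0.22 (adjusted p = 0.0016), -0.81 ± 0.22 (0.031) and -0.78 ± 0.22 (0.03). In agami the arrays read 2270, 1600 and 1870 without and 1740, 1470 and 1500 with salt and overlapped (-0.27, adjusted p = 0.69). The m103 call held without any 1 array. That of the first ir29-labelled set ended when any 1 array but salt array 1 was left out (adjusted p 0.061 to 0.15), and that of the second without control array 1 (0.17), control array 3 (0.057) or salt array 2 (0.25).

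CPK4 and CPK12, for which overexpression in rice has been linked to salt tolerance, were called for the mean of the sets, at -0.36 ± 0.083 (adjusted p = 0.0033) and -0.25 ± 0.084 (adjusted p = 0.039), and in no single set. The CPK12 call ended in 13 of 24 cases in which 1 array was left out, namely control array 1 or 2 or salt array 2 of m103, control array 2 or 3 or salt array 1 of agami, control array 1 or 2 or salt array 1 or 3 of the first ir29-labelled set, or control array 3 or salt array 2 or 3 of the second (adjusted p 0.05 to 0.078). CPK4 read 833, 700 and 671 in m103 control arrays and 542, 577 and 428 in salt arrays, and 957, 847 and 1010 against 745, 583 and 486 in agami. The arrays do not overlap in these sets, with adjusted p of 0.062 and 0.066, and they overlap in both ir29-labelled sets. CPK13, known as CDPK7 from rice with raised cold and salt tolerance, gave -0.30 ± 0.097 (adjusted p = 0.033) by 1 probe set and -0.27 ± 0.14 (adjusted p = 0.2) by the other. The call of CPK13 ended in 9 of 24 cases in which 1 array was left out (adjusted p 0.056 to 0.069), which were any 1 control array numbered 1, salt array 2 of m103, salt array 3 of agami or of the first ir29-labelled set, and salt array 2 or 3 of the second.

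CPK24 gave -0.13 ± 0.091, and CPK21, also tied to salt tolerance in rice, stayed below the filter. CPK19 was lower in the first ir29-labelled set (-0.29 ± 0.077, adjusted p = 0.026), a call that ended when any 1 array but salt array 3 was left out (adjusted p 0.056 to 0.11). CPK23 was higher in m103, at 2290, 2380 and 2280 without salt and 2940, 2750 and 2700 with it (0.27 ± 0.084, adjusted p = 0.047). The groups do not overlap, and the call ended when any 1 of the 6 arrays was left out (adjusted p 0.068 to 0.16).

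Of 27 tested CIPK probe sets, 4 were lower and 1 higher when the sets were averaged, with a median of -0.08. Together that is 18.5% of the CIPK probe sets, near the 17.7% of all that were called. CIPK1 was the member called higher. Its arrays read 925, 1010 and 1100 without and 1500, 1230 and 1220 with salt in m103, and 1430, 957 and 1150 against 2030, 1740 and 1710 in agami. In the first ir29-labelled set they read 1690, 1240 and 1140 against 2560, 2800 and 2280, and in the second 1140, 898 and 784 against 1700, 1280 and 1270. Salt arrays were above control arrays in all 4 sets. The log2 change was 0.91 ± 0.16 in the first (adjusted p = 0.0011) and 0.59 ± 0.16 in the second ir29-labelled set (adjusted p = 0.026), 0.37 in m103 (adjusted p = 0.19) and 0.64 in agami (adjusted p = 0.061). The mean was 0.63 ± 0.082 (adjusted p = 9.5e-06). The call of the second ir29-labelled set ended without control array 2, control array 3, salt array 1 or salt array 2 (adjusted p 0.058 to 0.11), and that of the first held without any 1 array.

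CIPK2 was lower in 3 sets by 1 of its 3 probe sets, of a type that Affymetrix marks as able to match related sequences. In m103 it read 7200, 7090 and 7230 in control arrays and 5280, 5120 and 5590 in salt arrays. The first ir29-labelled set read 6120, 6490 and 6650 against 4900, 5430 and 5060, and the second 7180, 7670 and 6540 against 5870, 5520 and 5670. The log2 changes were -0.43 ± 0.073 (adjusted p = 0.00043), -0.32 ± 0.073 (0.0077) and -0.32 ± 0.073 (0.0075), with no overlap in any of them, and each call held when any 1 array was left out. The calls of both ir29-labelled sets ended when each set was fitted alone. Without both second-set salt arrays of highest actin ratio, which leaves 1 salt array, the log2 change there was -0.28. In agami all 6 arrays lay between 5990 and 6420. The other probe sets of CIPK2 were called in no set, and in 3 sets the probe sets of the gene differed in sign. Both CBL9 probe sets and the CML13 probe set are of the same type as the called one of CIPK2, able to match related sequences.

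CIPK7 was called lower in both japonica sets and CIPK18 in m103. By 1 of its probe sets CIPK7 read 473, 500 and 418 in agami control arrays and 228, 183 and 197 in salt arrays (-1.14 ± 0.23, adjusted p = 0.017), and 699, 551 and 328 against 294, 281 and 206 in m103 (-0.92 ± 0.23, adjusted p = 0.011). In the first ir29-labelled set it read 501, 673 and 665 against 493, 289 and 493 (-0.54, adjusted p = 0.2). Salt arrays were thus below control arrays in 3 sets, while in the second ir29-labelled set they were above them, at 522 to 626 against 338 to 453 (0.42, adjusted p = 0.29). The agami call ended without control array 2 or 3 or salt array 2 or 3 (adjusted p 0.052 to 0.09), and the m103 call without control array 1 (0.1) or salt array 3 (0.067). The other probe set of CIPK7 had a mean change of -0.02. CIPK18 read 3620, 3690 and 4000 in m103 control arrays and 2590, 2090 and 2440 in salt arrays (-0.67 ± 0.094, adjusted p = 5.3e-05). It read 2180, 2020 and 2110 against 1800, 1620 and 1660 in the first ir29-labelled set (-0.31 ± 0.094, adjusted p = 0.052) and 4160, 3940 and 4430 against 3070, 3540 and 3650 in the second (-0.29 ± 0.094, adjusted p = 0.055). Salt arrays of CIPK18 lay below all control arrays in these 3 sets, and the mean of the 4 was -0.30 ± 0.047 (adjusted p = 6.9e-05). CIPK19 was lower in m103 too (-0.50 ± 0.12, adjusted p = 0.0084), with an adjusted p of 0.061 without control array 3, and CIPK25 for the mean of the sets (-0.30 ± 0.078, adjusted p = 0.0079).

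The kinase of the salt overly sensitive pathway, CIPK24, was not called. Its mean log2 change was 0.16 ± 0.055 (adjusted p = 0.051). In m103 it read 893, 890 and 862 without and 1050, 1110 and 848 with salt, and in the first ir29-labelled set 1340, 1440 and 1510 against 1670, 1820 and 1840. The groups overlap in m103 and do not in the first ir29-labelled set. CIPK23, which activates the potassium channel AKT1, gave a mean of -0.02 ± 0.10 by 1 probe set, made of unlike values. It read 257, 295 and 242 against 424, 360 and 313 in m103 (0.44 ± 0.20, adjusted p = 0.21) and 595, 726 and 726 against 576, 324 and 446 in the second ir29-labelled set (-0.62 ± 0.20, adjusted p = 0.054), with no overlap in either. The other probe set of CIPK23 was within 0.10 of 0 in each set and had the opposite sign in all 4. CIPK12, tied to drought tolerance in rice, gave -0.29 ± 0.22 and -0.32 ± 0.11 (adjusted p = 0.41 and 0.06).

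Differences in the salt effect between sets were called for 4 members. CIPK18, which fell in m103, read 3100, 2650 and 2660 in agami control arrays and 2850, 2950 and 2930 in salt arrays, which overlap. The salt effect in agami minus that in m103 was 0.73 ± 0.13 for CIPK18 (adjusted p = 0.0071) and 0.43 ± 0.10 for CIPK2 (adjusted p = 0.04), so 2 of 79 members were called, both higher, against 1.02% of all called and 0.527% higher (0.489% lower). The CIPK18 call held without any 1 array. The CIPK2 call ended in 10 of 12 cases in which 1 array was left out, all but m103 salt array 3 and agami control array 1 (adjusted p 0.064 to 0.13).

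CPK1 moved in opposite directions in the ir29-labelled sets. In the first it read 4460, 4880 and 5310 without and 3850, 3290 and 3970 with salt (-0.40 ± 0.11, adjusted p = 0.024). In the second it read 5910, 5720 and 5330 without and 7400, 8840 and 7800 with salt (0.50 ± 0.11, adjusted p = 0.0051). The groups do not overlap in either set, and the second minus the first was 0.90 ± 0.15 (adjusted p = 0.0023). Leaving out any 1 array kept the calls of the difference and of the second set, while that of the first ended without control array 2, control array 3 or salt array 2 (adjusted p 0.071 to 0.14). The CPK1 calls of both sets ended when each set was fitted alone. Without both second-set salt arrays of highest actin ratio, which leaves 1 salt array, the CPK1 log2 change there was 0.39. CAM3, lower with salt in the first set, read 12600, 14100 and 11500 without and 14200, 13100 and 14900 with salt in the second, which overlap. The difference was 0.45 ± 0.12 (adjusted p = 0.04), and its call ended in 8 of 12 cases in which 1 array was left out, namely control array 2 or 3 or salt array 2 or 3 of the first set, or control array 1 or 3 or salt array 1 or 3 of the second (adjusted p 0.05 to 0.095). These 2 of 79 members were both higher in the second set, against 3.51% of all called, 1.77% higher and 1.74% lower. The count was 6 without salt array 1 of the second set and 4 without salt array 1 of the first. Between the ir29-labelled and the japonica sets 0 members differed in salt effect in limma, against 0.212% of all (0.131% higher and 0.0815% lower), with 14 of 79 (17.7%) at an unadjusted p under 0.05, beside 11.6% of all. Cultivar and set cannot be told apart here.

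**Figure D4:**
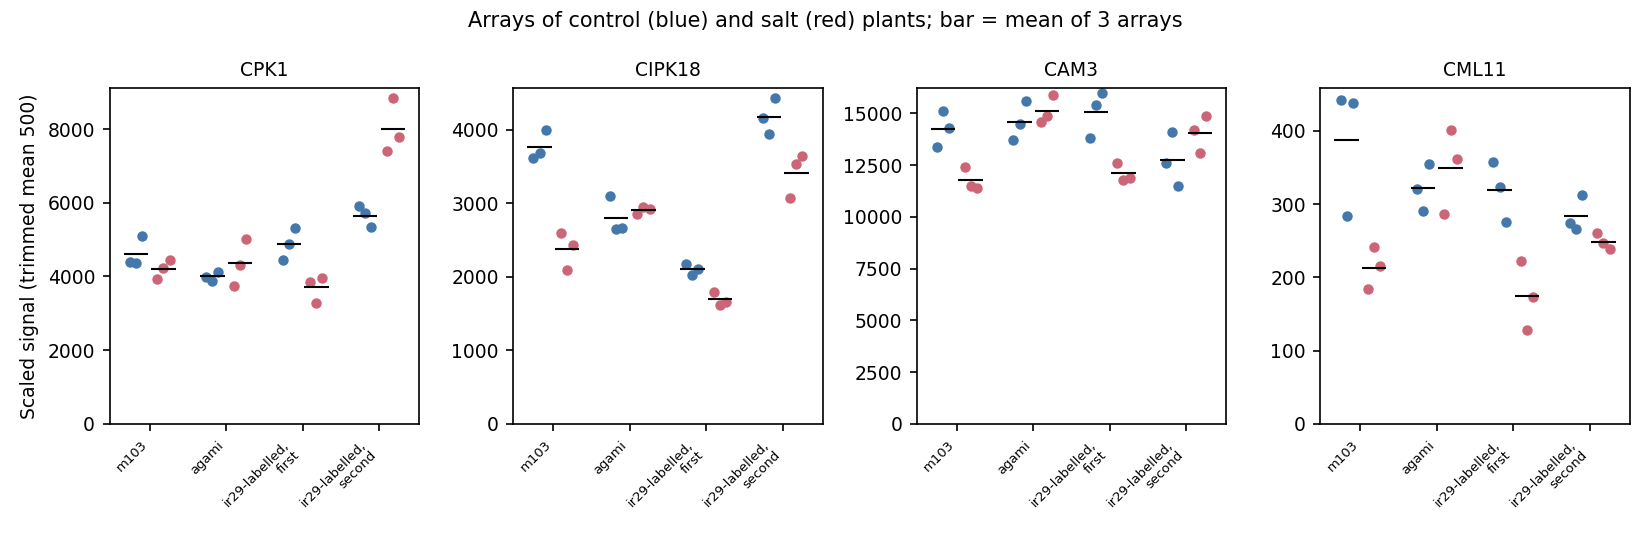
Scaled signal of CPK1, CIPK18, CAM3 and CML11 in each array, control beside salt in each set, with a bar at each group's mean. CPK1 lies lower with salt in the first ir29-labelled set and higher in the second; CIPK18 is lower with salt in m103 and overlaps in agami.

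Levels without salt also differed between sets, in comparisons that share their control arrays with the salt effects above. CIPK6 read 1520, 1500 and 1630 in m103 control arrays and 5490, 4830 and 4160 in agami, with the ir29-labelled sets at 4520 to 5690. The m103 arrays were the low ones, and they stayed at 1440 to 1870 with salt. Agami was above m103 by 1.62 ± 0.11 on the log2 scale (adjusted p = 2.7e-10). On these arrays a difference in level between cultivars and one in the sequence under the probes cannot be told apart. CML29 (0.74), CIPK17 (0.64) and CIPK25 (0.52) were also higher in agami, and CIPK7 by its other probe set (-0.64), CIPK18 (-0.43) and CIPK2 (-0.22) lower. In all, 7 members were called, 4 higher and 3 lower in agami, against 11.4%, 5.35% and 6.05% of all probe sets. All m103 control arrays had been deposited on the other scale and no agami array had, so cultivar and deposited scale cannot be told apart in this comparison. With the scale class as a covariate the count was 3, and the calls of CML29, CIPK17, CIPK7 and CIPK2 ended. The count was 2 without m103 array 3 or agami array 2 and 4 without m103 array 2 or agami array 3. Leaving out single control arrays ended the calls of CIPK2 (any 1 of the 6, adjusted p 0.084 to 0.13), CIPK17 (m103 array 2 or 3 or agami array 1 or 2, 0.088 to 0.23), CIPK25 (m103 array 2 or 3 or agami array 2 or 3, 0.075 to 0.16), CIPK7 (m103 array 3 or agami array 2 or 3, 0.057 to 0.093) and CML29 (m103 array 3 or agami array 2 or 3, 0.11 to 0.14).

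**Figure D5:**
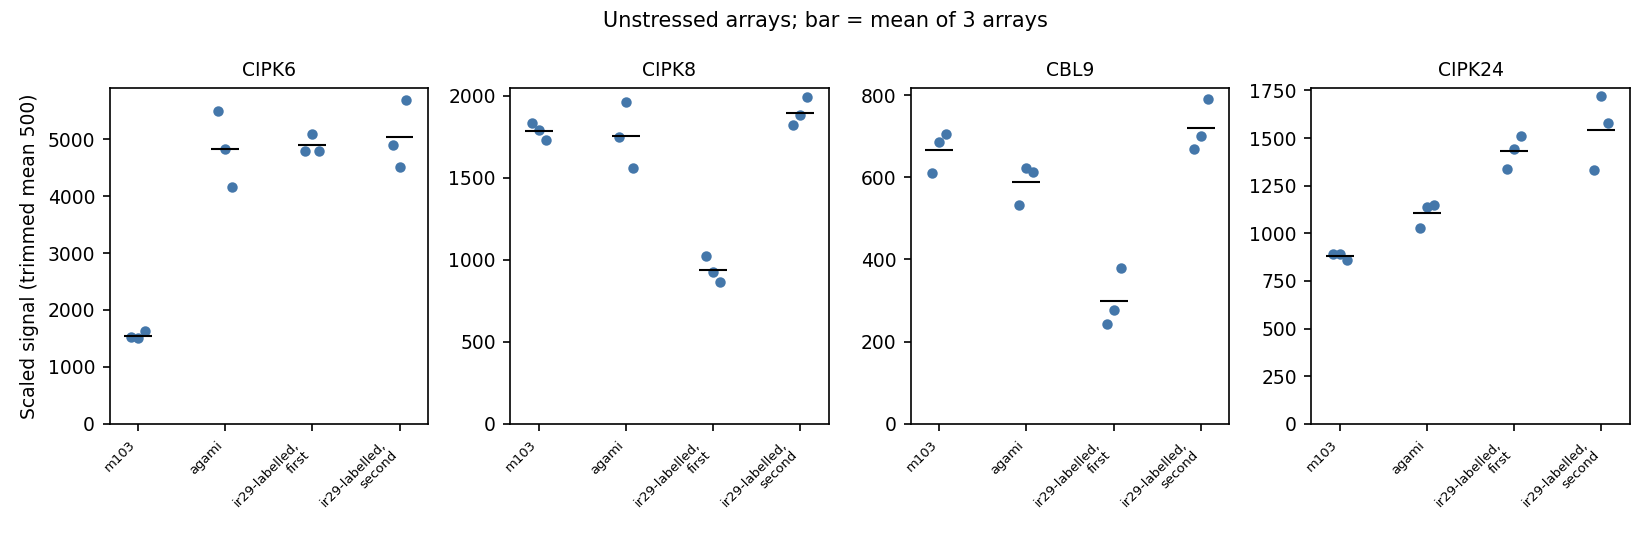
Scaled signal of CIPK6, CIPK8, CBL9 and CIPK24 in the control arrays of each set, with a bar at each group's mean. CIPK6 is low in m103, CIPK8 and CBL9 are low in the first ir29-labelled set, and CIPK24 is higher in both ir29-labelled sets than in the japonica sets.

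The ir29-labelled sets, which share a name, differed without salt in 13 members, 10 higher and 3 lower in the second, against 13.6%, 6.81% and 6.79% of all. The count was 7 without second-set array 2. With arrays centred on their medians these were 14 higher and 1 lower, and the median over all those tested went from -0.014 to 0.1. CIPK8 read 1020, 927 and 863 in the first set and 1820, 1880 and 1990 in the second (1.01 ± 0.11, adjusted p = 2.4e-07). The first set was the one that stood apart, as m103 and agami control arrays lay between 1560 and 1960. By 1 of its 2 probe sets CBL9 read alike, at 242, 276 and 380 in the first and 669, 701 and 790 in the second (1.24 ± 0.16, adjusted p = 3.5e-06), with the japonica arrays at 532 to 705. The other CBL9 probe set was not called, at 343, 366 and 267 against 431, 414 and 445 (0.40 ± 0.20, adjusted p = 0.21), and the japonica arrays at 337 to 548 overlap the first set. CML18 (1.04 ± 0.20), CML1, also named CAM61 (1.01 ± 0.24), CIPK18 (0.98 ± 0.094) and CIPK2 by another probe set (0.75) were among the higher ones. The lower ones were CIPK1 (-0.52), CIPK31 (-0.52 ± 0.12, adjusted p = 0.0033) and CBL2 (-0.41). Leaving out single control arrays ended the calls of CIPK1 (first-set array 1 or 2 or second-set array 2 or 3, adjusted p 0.054 to 0.22), CBL2 (any but second-set array 1, 0.052 to 0.15) and CIPK2 (first-set array 3 or second-set array 2, 0.083 and 0.078). First-set control arrays 1 and 3 had been deposited on the other scale and no second-set array had. With the scale class as a covariate the count was 8, and the calls of CIPK1 and CBL2 were among those that ended. These calls also ended with only arrays deposited unscaled kept in m103 and the first set.

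Both ir29-labelled sets together were set against both japonica sets without salt, where 10 members were higher and 11 lower (15.9% and 16.1% of all, together 32%). With arrays centred on their medians 20 were higher and 6 lower, and the median over all those tested went from -0.001 to 0.121. CPK18, a kinase of rice immunity that acts on MPK5, differed by both of its probe sets, 1 dim at 4.6 to 40 in japonica and 54.9 to 132 in ir29-labelled control arrays (1.75 ± 0.32, adjusted p = 0.00012, with a size from 0.98 to 2.51 over the alternatives, and most of the japonica values below the signal of 27.9 at the filter) and 1 at 1010 to 1250 and 1320 to 1720 (0.36 ± 0.083, adjusted p = 0.0014). CIPK23 was higher by 1 probe set (1.07 ± 0.14, adjusted p = 1.8e-06) and not by the other (0.07 ± 0.068). CIPK24 read 862 to 1150 in the japonica and 1330 to 1720 in the ir29-labelled control arrays, with no overlap (0.58 ± 0.078, adjusted p = 2.3e-06). CML29 (1.03 ± 0.15) and CIPK25 (0.42 ± 0.11) were higher as well. CIPK6 was called too (0.86 ± 0.080), but its agami control arrays (4160 to 5490) overlap the ir29-labelled ones (4520 to 5690), and the m103 arrays alone were low. The lower members included CML24 (-0.90), CML4 by 1 probe set (-0.86 ± 0.17, adjusted p = 0.00025), CML20 (-0.74), CML17 (-0.67), CBL2 (-0.58 ± 0.089, adjusted p = 1.5e-05) and CPK13 by 1 probe set (-0.57). CML24 was dim, at 24.3 to 70.7 in japonica and 7.65 to 47.1 in ir29-labelled control arrays, which overlap. Its size ran from -1.39 to -0.46 over the alternatives other than single arrays left out, and 6 of these 10 ended its call. Leaving out 1 control array ended the call of CML24 in 9 of 12 cases (all but m103 array 2, first-set array 1 and second-set array 1, adjusted p 0.052 to 0.12) and that of CPK13 without m103 array 1, agami array 3, first-set array 2 or second-set array 3 (0.054 to 0.11).

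Salt calls in the single sets were not shared by several probe sets of the same gene. Of 12 genes with several tested probe sets, 3 had a call with salt in a set (CIPK2, CIPK7 and CML4), each by 1 probe set.

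The other genes of calcium and salt signalling, a list of 85 tested probe sets that includes 66 of protein phosphatases 2C, had 7 called higher and 15 lower when the sets were averaged, beside 9.16% and 8.59% of all probe sets. In m103 they were 2 higher and 7 lower, 10.6% of the list beside 8.85% of all. In agami limma called 0 (0.934% of all), with 14 at an unadjusted p under 0.05. The first ir29-labelled set had 5 higher (3.38% of all), and the second 1 higher and 1 lower (4.41% and 4.42%). PP2C59 (0.58 ± 0.13, adjusted p = 0.0022), PP2C08 (0.54 ± 0.10, adjusted p = 0.00074) and PP2C09 (0.53 ± 0.11, adjusted p = 0.0015) had the largest rises, and the last pair belong to the phosphatases that hold back abscisic acid signalling. CCAMK, the calcium and calmodulin dependent kinase of root symbiosis, was lower by 1 probe set (-0.61 ± 0.20, adjusted p = 0.032), and its other probe set gave 0.26 and was not called.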

How the data were processed

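The deposited table holds the authors' intensity values, linear, for 57381 probe sets on each of 24 arrays, and per the submitters' processing notes GCOS 1.2 was used. Its signal algorithm and the genome build: not given in the sources used here. A trimmed mean (2% off each end) came to 500.07 to 500.08 on 15 arrays and to 58.788 to 115.71 on 9, so all were multiplied to reach 500. Values were tested as log2(scaled signal + 16), on which folds of dim probe sets come out too small. After 123 control probe sets were dropped, those with a mean above the 40th percentile (scaled signal about 27.9) were tested. limma 3.58.1 in R 4.3.3 fitted 1 mean for each of the 8 groups to all 24 arrays, with an intensity trend, two-sided tests and Benjamini-Hochberg adjustment over all 34355 probe sets tested. Errors are standard errors of that model, and 3 arrays per group limit the precision. The fit was tested on simulated data. The platform annotation is old: 22436 probe sets had 1 gene, 95 had several and 34850 had none. All gene IDs were found in the RefSeq table of ASM3414082v1, used for names only. The genes named were the called members, at most 10 in each direction for each salt effect and their mean and at most 6 for the other comparisons, and a fixed set of salt-signalling members (CBL4, CBL10, CIPK24, CIPK23, CIPK12, CPK4, CPK12, CPK13, CPK21, CPK24 and CAM1 with a probe set). CAM2 and CBL9 for the mean of the sets, single-set values without a call, the genes high in control arrays numbered 1, and the second value of a gene with 2 probe sets were named after their values were seen. From the other signalling list at most 4 were named. Alternatives covered the pseudocount, the filter, the scaling, the trend, the arrays fitted, the replicate number as a block, and single arrays left out. The members and lists were chosen with earlier results of these data known. Figures were drawn with matplotlib 3.10.9.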

Additional observations from a re-analysis of the deposited data

Results flagged for a closer look

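In 4 members the salt effect differed between sets by limma's test of the difference itself. The salt effect in agami minus that in m103 was 0.73 for CIPK18 and 0.43 for CIPK2. The salt effect in the second ir29-labelled set minus that in the first was 0.90 for CPK1 and 0.45 for CAM3. Groups of 3 arrays are too small for a check for single arrays that lie apart.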

How the results depend on the processing

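No call among 79 calls of named members turned its direction in any setting run for it. Of these, 42 held in every setting other than leaving out single arrays, 45 when any 1 array was left out, and 39 in all. The counts of members called were 12 in m103, 2 in agami, 10 and 7 in the first and second ir29-labelled sets and 19 for their mean. They were 2 for the difference in salt effect of agami and m103, 2 for that of the ir29-labelled sets and 0 for that of ir29-labelled and japonica sets, and without salt 7, 13 and 21. Without the filter both differences of 2 fell to 1. With quantile normalization agami had 4 and the ir29-labelled difference 1. Without the intensity trend agami had 1, the first ir29-labelled set 5, the second 4, each difference of 2 became 1, and agami against m103 without salt gave 4. When the arrays compared were fitted alone, the first ir29-labelled set had 3, the second 0 in limma (15 at an unadjusted p under 0.05), and their difference 1. The labels do not say what a replicate number marks, and over all probe sets the numbers did not meet the criterion set for pairing, an r above 0.1 in every pair (same-number correlations of deviations -0.05 to 0.20 over 12 pairs, 1 above 0.1, and 6 of 12 highest with their own number). With the replicate number as a block agami had 5 and the ir29-labelled against japonica difference 1, while m103 had 14 and the mean of the sets 22. With the scale class as a covariate the comparisons without salt gave 3 for agami against m103 and 8 between the ir29-labelled sets. With only arrays deposited unscaled in m103 and the first ir29-labelled set, that set had 5 and the 3 differences 1 each. Chosen after seeing the data, leaving out both second-set salt arrays of highest actin ratio left 1 call in that set, and leaving out the 4 control arrays numbered 1 left 4. With single arrays left out the counts ran from 7 to 12 in m103, 0 to 2 in agami, 5 to 9 in the first and 3 to 12 in the second ir29-labelled set and 17 to 23 for the mean. The differences ran from 1 to 2, 1 to 6 and 0 to 1, and the comparisons without salt from 2 to 9, 7 to 12 and 18 to 24. The cause was not tested.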
